A study of Mus musculus with 6 samples.

Results

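The interleukin-1 (IL-1) family and its receptors were examined in colon tissue with tumors from mice. The genes were Il1a, Il1b, Il18 and Il33 (agonists), Il1rn and Il18bp (inhibitors), Il1r1 and Il1rl1 (signaling receptors), Il1rap (co-receptor) and Il1r2 (decoy receptor). They were chosen by name: every gene probe on the array whose gene name is 1 of these 10 symbols was taken, which gave 21 probes among 56605 gene probes. The rule uses names and no measured value.

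Colitis-associated colon tumors were induced in male C57BL/6 mice with azoxymethane (AOM, 10 µg/g), a mutagen, and 2% dextran sulfate sodium (DSS), which injures the colon lining, in the drinking water. All 6 mice received both agents and were 6 to 8 weeks old when purchased. In 1 group, 3 mice were given RG@M-γ-CD by mouth at 30 µg/g, which carries 10 µg/g of regorafenib (RG), and in the control group 3 mice were given PBS by mouth. The treatment label reads Rgnanomedicine (Test) or PBS (Control). RG@M-γ-CD is a channel-type nanoparticle of regorafenib, an inhibitor of several kinases, in mannose-modified γ-cyclodextrin, which is meant to reach macrophages through the mannose receptor. Treatment lasted 21 days with 14 days of observation after it. RNA of each mouse was labeled with Cy3 and hybridized to 1 one-color Agilent array. The tissue was bulk colon with tumors, so fewer cells of a type and less RNA per cell cannot be told apart, and the number of arrays limits the precision. Free regorafenib and empty M-γ-CD were not analysed here, so drug and carrier cannot be told apart.

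IL-1β, IL-18 and IL-33 are cytokines that bind a specific receptor chain, which then recruits a co-receptor and signals through MyD88 and NF-κB. Myeloid cells make much of the IL-1β in an inflamed gut, as a precursor that caspase-1 cuts in the inflammasome, whereas epithelial cells store IL-18 and stromal and epithelial cells hold IL-33 in the nucleus until they are damaged. The pathway is held back by a receptor antagonist (Il1rn), a soluble trap for IL-18 (Il18bp), a decoy receptor that does not signal (Il1r2) and soluble forms of the receptors. In the colon the family is known both for driving inflammation and for helping the lining to heal.

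For several genes the array carries probes to different places of the transcript, and these set how the values are read. The probes that separate isoforms of a receptor, and the second probes of Il1b and Il1r2, are shown 5′ to 3′ as the scanner files give them. The first pair is complete at 60 bases, and capitals mark the only reading frame of the 3 with no stop codon, 19 codons in each. The other 4 are the first 30 of 60 bases, without capitals.
Il1b, chr2:129190880-129190939, minus strand: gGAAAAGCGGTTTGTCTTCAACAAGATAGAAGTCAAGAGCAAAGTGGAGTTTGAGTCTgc
Il1r2, chr1:40168971-40171918, plus strand: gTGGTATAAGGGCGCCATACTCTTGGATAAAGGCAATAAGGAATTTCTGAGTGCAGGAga
Il1rl1, soluble form, chr1:40504769-40504828, plus strand: ctctgtaacaggatcttttgtctagatttc
Il1rl1, membrane form, chr1:40522187-40522246, plus strand: gccattgactccttgtgtgttttcttcatg
Il1rap, membrane form, chr16:26717577-26717636, plus strand: tgtatacagccacatgggatttaattctct
Il1rap, soluble form, chr16:26701498-26701557, plus strand: gatgttgtcaacgcctttgtttctaaatgt
Positions are those of the scanner files in the mouse build mm9. The Il1r2 probe of 60 bases spans 2948 bases of genome and so crosses at least 1 exon junction. Exons and untranslated regions of that build were not annotated here. The form of a receptor was taken from the RefSeq transcript to which the scanner files assign the probe.

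Values are log2 of the processed signal minus the 75th percentile (P75) of the gene probes of the same array, so 0 is the level of that percentile, and values of different probes are not compared with each other. A difference of 1 is a factor of 2 in signal. A probe entered the test if at least 1 group had it well above background on each of its 3 arrays, and a gene was represented by its brightest such probe. Between 49.6% and 55.1% of the probes were well above background per array, no gene spot was saturated, and the lowest correlation between any 2 arrays (r = 0.941) was that of replicates 1 and 2 of RG@M-γ-CD. Markers of colon epithelium were well above background on all 6 arrays for 12 of 12 genes. Replicate 1 of each group stands apart from its label in 1 respect: a supplementary heat map of the study, whose columns carry array numbers but no condition, places replicates 2 and 3 of RG@M-γ-CD together with PBS replicate 1 (arrays 7, 6 and 8), and RG@M-γ-CD replicate 1 with PBS replicates 2 and 3 (arrays 5, 10 and 11). Groups here follow the labels, and results are also given without these libraries or in the arrangement of the heat map where that changes them.

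Of the 10 genes, 9 were tested, and 3 were higher and 6 lower after RG@M-γ-CD than after PBS, with a median log2 change of -0.64 against -0.01 over all 19090 genes tested. None of the 9 passed the adjusted threshold (limma, Benjamini-Hochberg adjusted p below 0.05), where 0% of all genes passed. None of the 9 had an unadjusted p below 0.05, which 2.19% of all genes had. None of the 9 separated the groups without overlap, whereas 2.19% of all genes lay wholly lower and 2.38% wholly higher after RG@M-γ-CD. The genes took 3 forms across the arrays: Il1b and Il1r2 were low on replicates 2 and 3 of RG@M-γ-CD, Il33 and Il1rl1 were low on replicate 2 alone, and Il1rn, Il18, Il1r1 and Il1rap varied over all 6 arrays by factors of 1.23 to 1.67. Il18bp had its 2 highest arrays in PBS. Without replicate 1 of both groups, 1 of the 9 genes was higher and the median change was -0.34, against -0.09 over all genes.

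**Figure D1:**
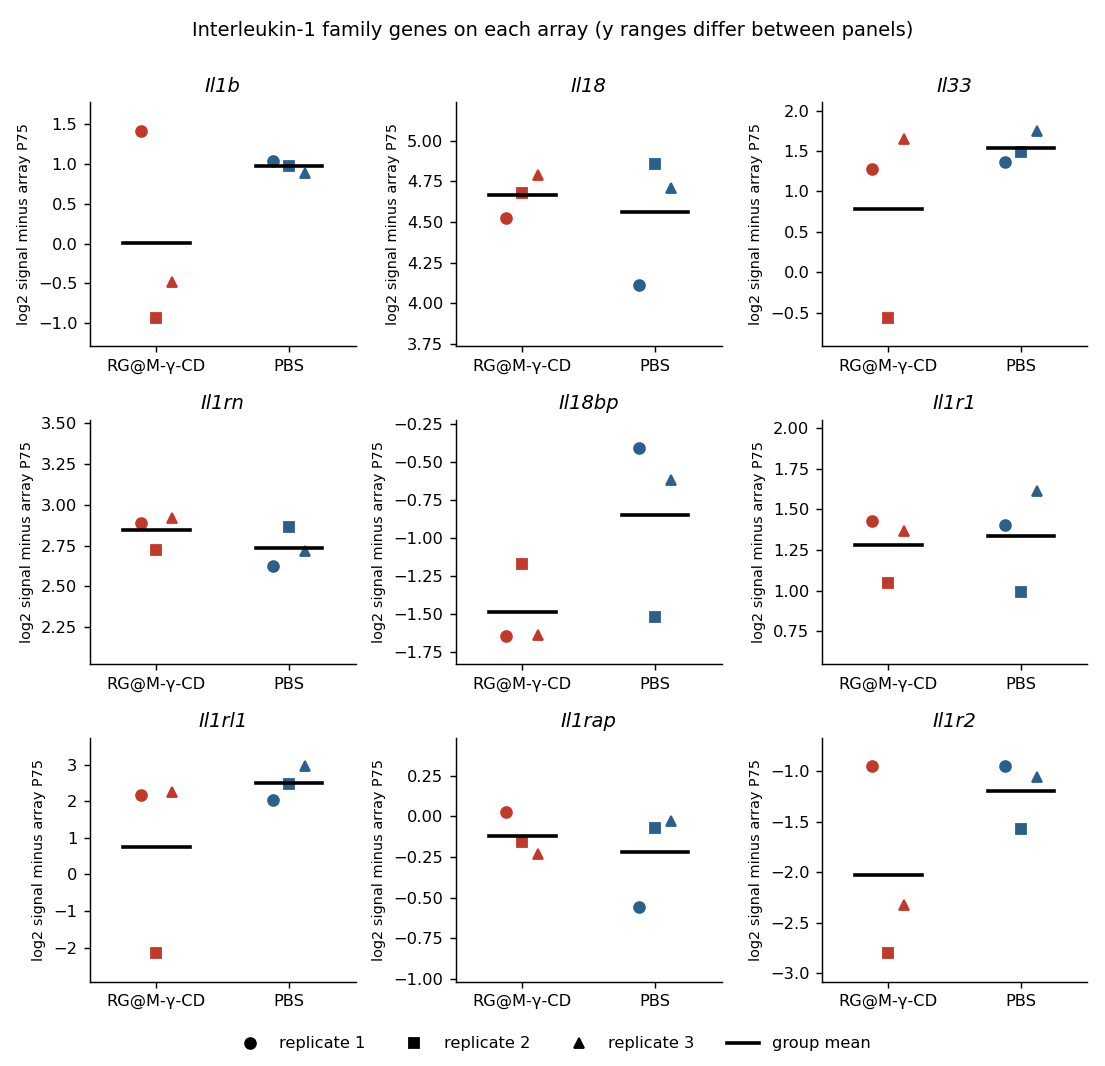
Log2 processed signal minus the 75th percentile of the array for the brightest probe of each of the 9 genes tested, with 1 point per array (circle, replicate 1; square, replicate 2; triangle, replicate 3; red, RG@M-γ-CD; blue, PBS) and a bar at the mean of 3 arrays. Each panel has its own y range. Il1b and Il1r2 are low on 2 of the 3 RG@M-γ-CD arrays, and Il33 and Il1rl1 on 1 of them.

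Il1b, which encodes the main secreted IL-1 agonist, read 1.42, -0.94 and -0.48 in the RG@M-γ-CD replicates 1, 2 and 3, and 1.04, 0.98 and 0.89 in the PBS replicates. The PBS arrays lay close together, while RG@M-γ-CD held both the highest array of all and the lowest pair, which was separated from the next array by a factor of 2.59. The means were 0.00 ± 1.25 (SD, n = 3) and 0.97 ± 0.07 (SD, n = 3). The log2 change of -0.97 (standard error 0.58, 95% interval -2.37 to 0.44) corresponds to a 1.96-fold lower mean signal and did not pass the test (limma, adjusted p = 1.0). The second Il1b probe, the one printed above, had the same order of low arrays: -0.69, -3.59 and -2.88 after RG@M-γ-CD, and -1.48, -1.71 and -1.46 after PBS. Its change was -0.84 (standard error 0.70). A further probe, assigned to another Il1b transcript, was well above background on 2 RG@M-γ-CD arrays and 1 PBS array, between -5.11 and -2.72, and was not tested.

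The Il1b result turned on RG@M-γ-CD replicate 1. With that array left out the change was -1.68 (standard error 0.20) and passed the adjusted threshold (limma, adjusted p = 0.0332), in a fit in which 1.04% of 19466 genes passed. It was the only one of the 9 genes to do so in that fit. With replicate 2 left out instead, the change was -0.50. In the arrangement of the heat map, arrays 6, 7 and 8 minus arrays 5, 10 and 11, it was -1.22 (adjusted p = 0.300), where 0.0259% of genes passed.

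Il1r2 encodes the decoy receptor, which takes up IL-1 without signaling and is carried by neutrophils and monocytes among other cells. Its brightest probe read -0.95, -2.81 and -2.33 after RG@M-γ-CD and -0.94, -1.58 and -1.06 after PBS. Replicate 1 of RG@M-γ-CD was at the level of the PBS arrays, and the other two were the lowest of the 6. The change was -0.83 (standard error 0.48, 95% interval -1.996 to 0.33, adjusted p = 1.0). When the first RG@M-γ-CD array was left out it was -1.37, with an adjusted p of 0.0940, and when the second was left out it was -0.44. The exon-spanning probe printed above read -3.37, -6.46 and -4.93 after RG@M-γ-CD, where it was well above background on replicate 1 alone, and -3.11, -3.81 and -3.48 on the 3 PBS arrays, where it was well above background on all. It passed the filter through PBS alone, and no change is given for it. Across the 6 arrays Il1b and Il1r2 correlated at r = 0.96, a description over arrays that share their tissue composition.

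**Figure D2:**
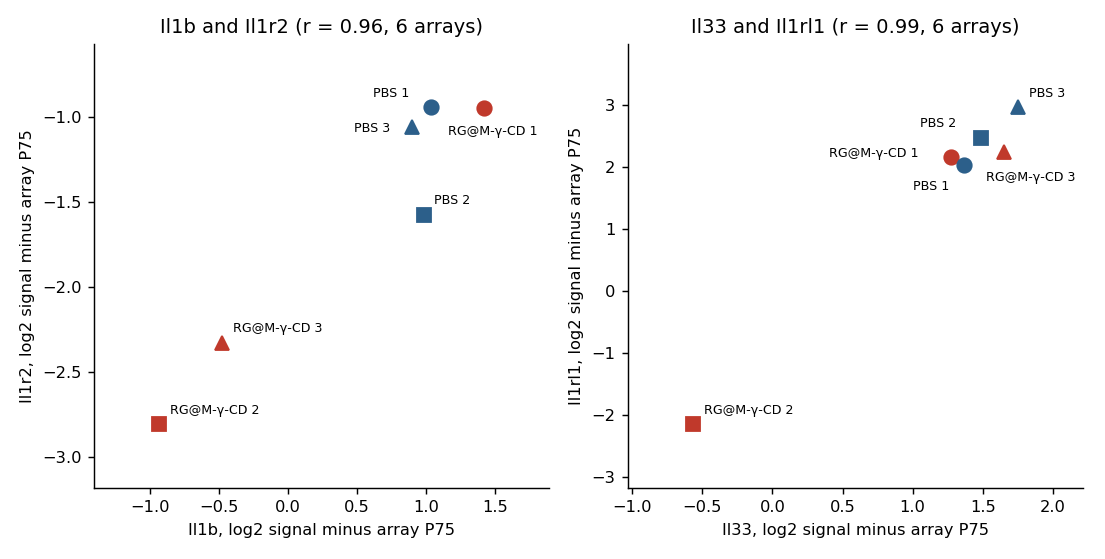
Pairs of genes across the 6 arrays, each axis in log2 processed signal minus the 75th percentile of the array, for Il1b with Il1r2 (left) and Il33 with Il1rl1 (right), 1 point per array (red, RG@M-γ-CD; blue, PBS). Replicates 2 and 3 of RG@M-γ-CD lie low on the left, and replicate 2 alone lies low on the right.

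Il1a, which encodes the cell-associated agonist, was well above background on none of the 6 arrays. Its only probe read between -6.56 and -5.26, and no fold change is given. Il18, which encodes the agonist held ready by the epithelium, read 4.53, 4.68 and 4.79 after RG@M-γ-CD and 4.11, 4.86 and 4.71 after PBS. The groups overlapped, with the lowest array in PBS. The change was 0.11 (standard error 0.23, 95% interval -0.45 to 0.66). It was -0.12 without PBS replicate 1 and -0.17 in the arrangement of the heat map.

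Il33 encodes a nuclear alarmin that is released by damaged cells. It read 1.28, -0.57 and 1.65 after RG@M-γ-CD and 1.37, 1.49 and 1.75 after PBS. Replicate 2 of RG@M-γ-CD was the only low array, a factor of 3.59 below the next, and the other 5 overlapped. The change was -0.75 (standard error 0.56, 95% interval -2.10 to 0.61). It was -0.07 without that array and -1.18 without replicate 3. The second Il33 probe had a smaller spread, from -3.90 on the same array to -3.01, and a change of -0.33 (standard error 0.24).

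Il1rl1 encodes ST2, the receptor of IL-33, as a membrane form that signals and a soluble form that traps the cytokine. The probe to the soluble form read 2.17, -2.16 and 2.24 after RG@M-γ-CD and 2.04, 2.47 and 2.97 after PBS. Replicate 2 of RG@M-γ-CD was 18.4-fold below the next lowest array, and 99.8% of all genes tested varied less over the 6 arrays. The probe to the membrane form read 0.42, -1.74 and 0.01 after RG@M-γ-CD and 0.04, 0.58 and 0.98 after PBS, again with replicate 2 far below the rest. The changes were -1.74 (standard error 1.17, 95% interval -4.56 to 1.08) for the soluble form and -0.97 (standard error 0.58) for the membrane form. Without RG@M-γ-CD replicate 2 the soluble form changed by -0.29. A further probe to the membrane transcript was well above background on no array. Il33 and Il1rl1 correlated at r = 0.99 over the 6 arrays and at r = 0.763 over the 5 arrays other than replicate 2 of RG@M-γ-CD.

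Il1rn encodes the IL-1 receptor antagonist, which occupies IL-1R1 and blocks signaling. It read 2.89, 2.72 and 2.92 after RG@M-γ-CD and 2.62, 2.87 and 2.72 after PBS. All 6 arrays lay within a factor of 1.23, and only 7.87% of the genes tested varied less. The change was 0.11 (standard error 0.15, 95% interval -0.26 to 0.48), and the second probe gave -0.07 (standard error 0.19). In the arrangement of the heat map the change of the brightest probe was -0.07.

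Il18bp, the soluble trap of IL-18 and a gene known to be induced by interferon, read -1.64, -1.17 and -1.64 after RG@M-γ-CD and -0.41, -1.52 and -0.62 after PBS. Of the PBS arrays, replicate 2 lay among the RG@M-γ-CD arrays and the other two were higher than all of them. The change was -0.64 (standard error 0.32, 95% interval -1.42 to 0.14), and the second probe gave -0.65 (standard error 0.32). It was -0.97 when PBS replicate 2 was left out and -0.42 when PBS replicate 1 was. The direction turned in the arrangement of the heat map, where the change was 0.19.

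Il1r1, the receptor chain that binds IL-1 and signals, read 1.43, 1.05 and 1.37 after RG@M-γ-CD and 1.41, 0.99 and 1.61 after PBS. The groups covered the same range, and the change was -0.05 (standard error 0.22, 95% interval -0.58 to 0.47). Leaving out replicate 2 of RG@M-γ-CD gave 0.06, and leaving out PBS replicate 3 gave 0.08. Il1rap, the co-receptor shared by IL-1R1 and ST2, read 0.03, -0.16 and -0.23 after RG@M-γ-CD and -0.56, -0.07 and -0.03 after PBS for the membrane form. The lowest array was PBS replicate 1, and the change was 0.10 (standard error 0.20, 95% interval -0.38 to 0.58). It was -0.07 without PBS replicate 1, and in the arrangement of the heat map the change was -0.29. The soluble form read between -3.60 and -2.59, with a change of 0.34 (standard error 0.26). The remaining pair of Il1rap probes was well above background on no array.

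**Figure D3:**
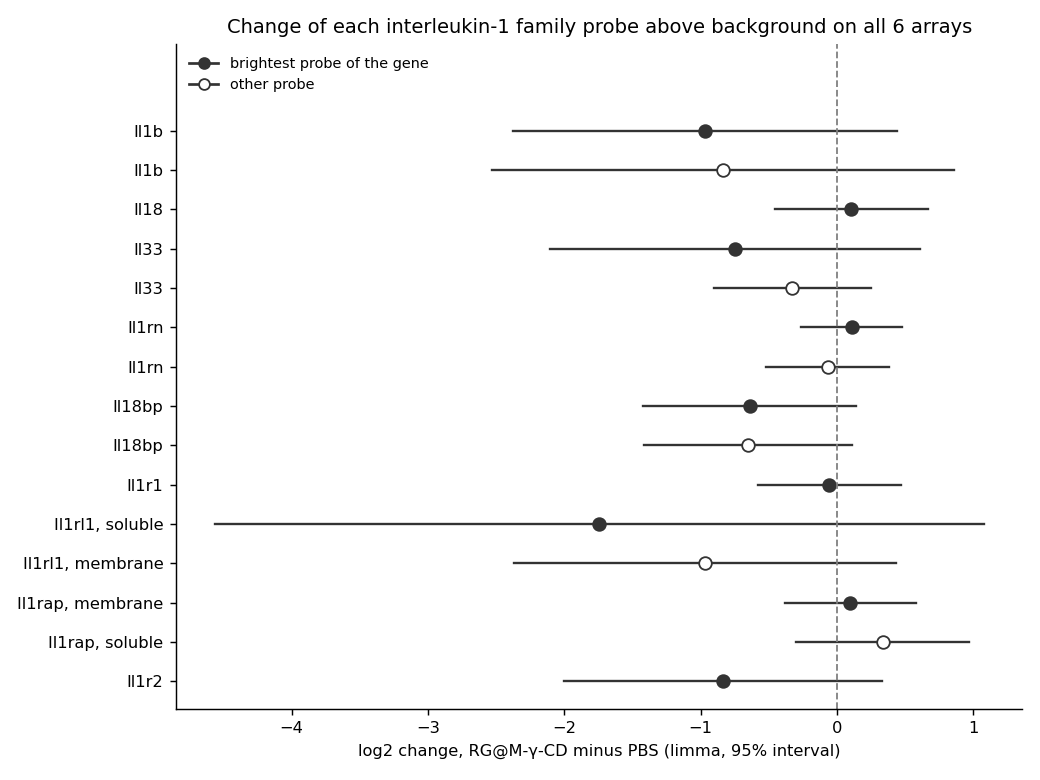
Log2 change, RG@M-γ-CD minus PBS, with its 95% interval for each of the 15 interleukin-1 family probes well above background on all 6 arrays, from a limma fit over the 28291 probes that passed the filter (filled, brightest probe of the gene; open, other probe). Every interval includes 0, and the widest is that of the soluble form of Il1rl1.

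When every probe that passed was fitted on its own, an analysis chosen after the data were seen, 0% of the 28291 probes passed the adjusted threshold. Of the 16 family probes that passed, 15 were well above background on all 6 arrays. Among these a further probe had the sign of the brightest one in 5 of 6 genes, and Il1rn was the exception.

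The changes were set beside markers of the cells that the tissue could hold. The 10 monocyte and macrophage markers, all well above background on all arrays, summed to 174, 67.4 and 81.0 times P75 after RG@M-γ-CD and to 149, 170 and 166 after PBS, so that the same replicates 2 and 3 were low as for Il1b and Il1r2. Lyz2 made up 74.9% of that sum over all arrays, and those replicates were the lowest pair for 10 of the 10 markers. The 6 smooth muscle markers, again all detected on every array, summed to 97.6, 636 and 769 after RG@M-γ-CD and to 188 to 220 after PBS, and were highest on those replicates. Of 10 neutrophil markers 8 were tested, and their sum of 46.9 to 100 after RG@M-γ-CD overlapped the 59.3 to 104 after PBS. Csf3r made up 59.8% of that sum. For 6 of the 8, replicates 2 and 3 of RG@M-γ-CD were the lowest pair of arrays, as for Il1b and Il1r2. These were S100a8, S100a9, Cxcr2, Mmp8, Retnlg and Ly6g. Only 4 of the 8 were well above background on all 6 arrays. Cxcr2, Mmp8 and Retnlg were not on replicate 2 of RG@M-γ-CD, and entered the test through PBS alone. The other 2 went the other way. Csf3r was highest on that replicate (6.25). Camp lay wholly higher after RG@M-γ-CD, as 2.38% of all genes did. On PBS replicate 2, however, Camp (-4.43) was below the lowest value well above background (-3.98). It entered the test through RG@M-γ-CD alone, and its separation is not read as a result. The median change over the 8 was -0.82, which includes the genes that entered through 1 group alone. Ngp was not above background on any array. T cell markers, of which 5 of 7 were tested, summed to 3.17 to 5.60 and 5.32 to 6.77, also with replicates 2 and 3 of RG@M-γ-CD lowest. Their part in the Il1b and Il1r2 values was not tested.

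Markers of the cells known to carry ST2 were set beside Il33 and Il1rl1. The mast cell markers (6 of 8 tested) summed to 5.66 to 10.9 after RG@M-γ-CD, with 10.9 on replicate 2, and to 6.86 to 14.1 after PBS, and replicate 2 was the lowest array for none of the 6. Kit made up 48.1% of the sum on replicate 2, the array where Kit was highest (2.39). Markers of regulatory T cells and group 2 lymphoid cells (6 of 8 tested) summed to 7.20 to 7.55 after RG@M-γ-CD, with 7.22 on replicate 2, and to 4.74 to 8.18 after PBS, while Il5 and Il13 were not above background on any array. Areg made up 52.6% of that sum. Replicate 2 was the lowest array for Gata3 and Il2ra and among the lowest pair for 4 of the 6 markers. Fibroblast markers (8 of 8 tested), from cells that can hold IL-33, summed to 92.9, 161 and 157 after RG@M-γ-CD and to 123 to 129 after PBS, and squamous epithelium markers (6 of 10 tested) to 23.1, 14.5 and 18.01 and to 22.0 to 28.4. The part of these cells in the Il33 and Il1rl1 values was not tested.

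**Figure D4:**
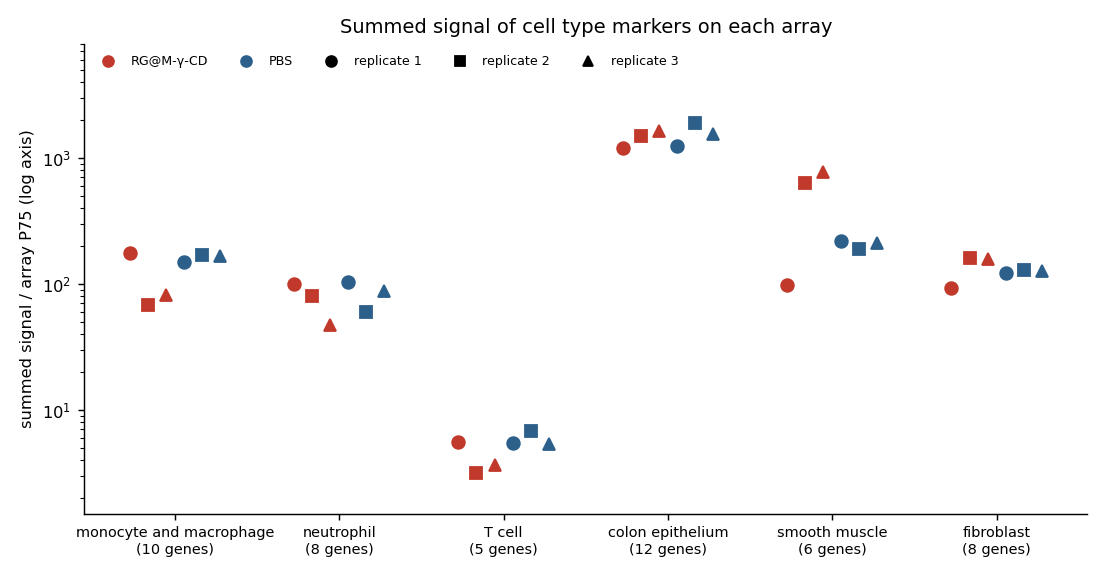
Summed signal of the tested markers of 6 cell types on each array, in units of the array's 75th percentile, on a log axis (circle, replicate 1; square, replicate 2; triangle, replicate 3; red, RG@M-γ-CD; blue, PBS). Macrophage markers are low, at 67.4 and 81.0, and smooth muscle markers high, at 636 and 769, on replicates 2 and 3 of RG@M-γ-CD. Lyz2 makes up 74.9% of the macrophage sum over all arrays.

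The other genes of the pathway were counted on lists, 72 genes in all, of which 59 were tested. None passed the adjusted threshold, 16 were higher and 43 lower after RG@M-γ-CD, and the median change was -0.15. Of the 59, 6 had an unadjusted p below 0.05, against 2.19% of all genes, and 8 lay wholly lower without overlap, against 2.19% of all genes. None lay wholly higher. Among the 57 well above background on all 6 arrays, 16 were higher and 41 lower, with a median of -0.14. Without replicate 1 of both groups, 17 were higher and 42 lower.

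Among 5 further ligands and decoys of the family, only Il36a, an agonist made by epithelia and named Il1f6 in the files, was tested. It read -3.13, -6.43 and -4.62 after RG@M-γ-CD and -2.97, -3.52 and -2.50 after PBS, and was above background on replicate 1 alone of the RG@M-γ-CD arrays. It passed the filter through PBS alone, and no change is given for it. Of 6 further receptors 3 were tested: Il1rl2, the receptor of the IL-36 cytokines, had the largest rise (0.33), and Il18r1, the IL-18 receptor chain, the largest fall (-0.56). Neither passed the test. Leaving out 1 array at a time gave -0.0053 to 0.68 for Il1rl2 and -0.85 to -0.39 for Il18r1, with the extremes when replicate 1 or 2 of RG@M-γ-CD was left out.

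Of 17 genes that cut or release IL-1 cytokines, 14 were tested, 4 higher and 10 lower, with a median change of -0.07. Casp4, which encodes the mouse caspase-11 that senses intracellular lipopolysaccharide, had the largest fall. It read 3.54, 3.44 and 2.93 after RG@M-γ-CD and 3.98, 3.70 and 4.31 after PBS, with no overlap and a change of -0.70 (standard error 0.24, adjusted p = 1.0). Of the 14, 2 lay wholly lower without overlap, against 2.19% of all genes: Casp4 and Mefv (-0.65), the latter named after its values were seen. Nlrp1b, an inflammasome sensor, had the largest rise (0.42), which was 0.08 without replicate 2 of RG@M-γ-CD and 0.78 without replicate 1. Casp1, named here after its value was seen as the enzyme that cuts pro-IL-1β, had a change of -0.03 (standard error 0.21), and Nlrp3 was not above background on any array. Of 26 signaling genes, all tested, 9 were higher and 17 lower, with a median change of -0.09. The extremes were Irak3, an inhibitor of the receptor complex (-0.36), and Fos, a subunit of the AP-1 factor (0.74). Irak3 was -0.54 and Fos 0.24 without replicate 2 of RG@M-γ-CD, and -0.22 and 1.16 without replicate 1. Only 1 of the 26 was without overlap, where 2.19% of all genes lay wholly lower and 2.38% wholly higher. This was Myd88, the adaptor of the receptors, named after its values were seen. Its 3 RG@M-γ-CD arrays read 2.23 to 2.27 and its 3 PBS arrays 2.43 to 2.47, a change of -0.20 (standard error 0.13, adjusted p = 1.0).

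Of 18 genes known to be induced by IL-1, 15 were tested, 1 higher and 14 lower, with a median change of -1.10. Of these 15, 4 had an unadjusted p below 0.05 (limma), against 2.19% of all genes. That median is the change of Cxcl2, a gene not well above background on every array, which passed the filter through PBS alone. Among the 14 genes well above background on every array, 1 was higher and 13 lower, with a median of -1.40. Over the 15 genes the median was -1.43 without replicate 1 of both groups and -0.997 in the arrangement of the heat map. S100a8, a calcium-binding protein of neutrophils and monocytes that is also on the neutrophil list, had the largest fall (-2.52, standard error 1.40). It read 3.24, -2.24 and -0.80 after RG@M-γ-CD and 2.86, 1.33 and 3.56 after PBS, low on the same arrays as Il1b. The change was -4.10 without replicate 1 of RG@M-γ-CD and -1.36 without replicate 2. Il6, a cytokine of the acute response, was the only one higher (0.88, standard error 0.61), and its highest array was RG@M-γ-CD replicate 1 at -0.80. It was 0.23 without that array and 1.46 without replicate 3. In the arrangement of the heat map Il6 changed by -0.72.

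Of the 15 genes tested on this list, 5 lay wholly lower without overlap, against 2.19% of all genes. Named after their values were seen, they were the neutrophil attractant Cxcl5 (-2.26), the inducible nitric oxide synthase Nos2 (-2.16), the iron-binding protein Lcn2 (-1.88), the acute phase protein Saa3 (-1.77) and the matrix protease Mmp3 (-1.04). Nos2 read 1.60, 0.45 and 0.23 after RG@M-γ-CD and 3.38, 2.15 and 3.25 after PBS. Because these 5 genes were chosen for their lack of overlap, replicate 1 of RG@M-γ-CD was bound to lie on the side of its label. Their adjusted p was 1.0. When the first RG@M-γ-CD array was left out, 2 of the 59 pathway genes tested passed the adjusted threshold (limma). They were Cxcl1 (-1.40, adjusted p = 0.0402) and S100a9 (-3.17, adjusted p = 0.0402). In that fit 1.04% of 19466 genes passed. S100a9, like S100a8, is also on the neutrophil list.

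For each gene of the family with an SD of at least 0.5 over the 6 arrays, the 3 most similar genes were sought among 3307 genes with that spread and well above background on all arrays, by Pearson's r over the 6 arrays, which share tissue composition. The lists are descriptions with no test. Il1b was followed most closely by Habp2, Rnase1 and Halr1 (r = 0.993 to 0.997), and Il1r2 by the myeloid genes Bcl2a1c and Clec4d and by Kif26b (r above 0.995 for each). Il33 was followed by an unnamed transcript, Hif1a and Cemip (r = 0.98), and Il1rl1 by Hif1a, the same transcript and the matrix protease Mmp10 (r = 0.99). The Hif1a probe fell to -0.49 on replicate 2 of RG@M-γ-CD from 3.67 to 4.37 on the others, whereas another Hif1a probe above background on all arrays was highest there (-0.93, against -2.49 to -1.19), so the likeness holds for 1 probe and not for the gene. Il18bp was followed by Igtp, Cxcl10 and Cxcl9 (r = 0.98, 0.98 and 0.97), which are known as genes induced by interferon-γ. Among the family, Il18bp and the brightest Il1rn probe ran opposite to each other (r = -0.95 over 6 arrays), though that Il1rn probe varied only by a factor of 1.23. On PBS replicate 3 it was among its lowest (2.72), whereas the second Il1rn probe was highest there (-1.01). The relation is therefore given for 1 probe and not for the gene.

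**Figure D5:**
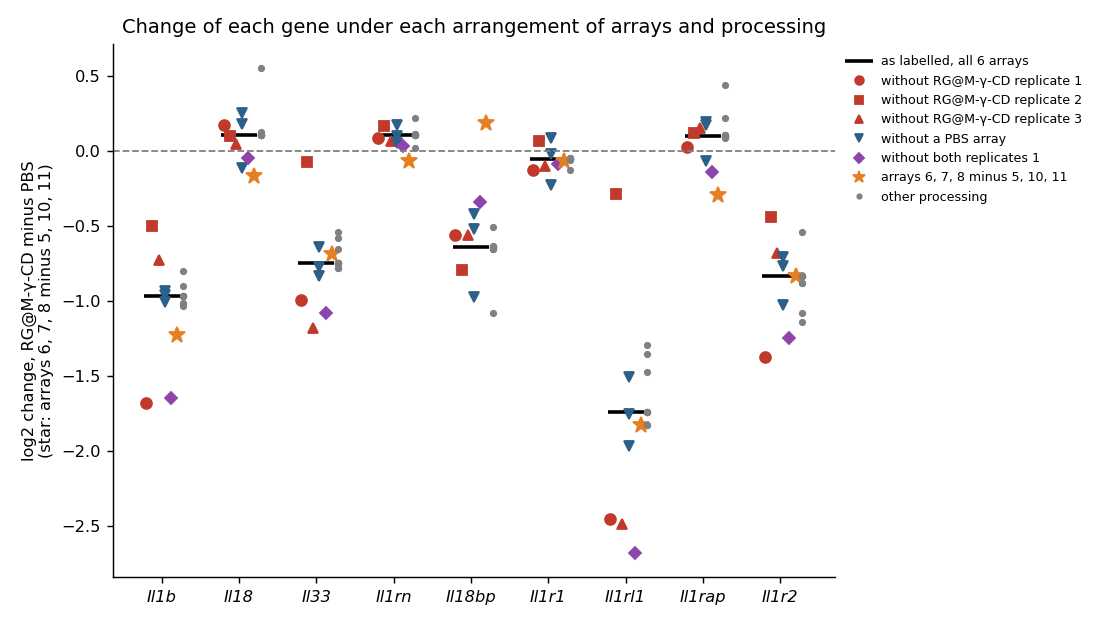
Log2 change of each of the 9 genes as labeled with all 6 arrays (bar), with arrays left out, in the arrangement of the heat map (star, arrays 6, 7, 8 minus 5, 10, 11) and under other processing (gray). Il1b moves from -0.97 to -1.68 without RG@M-γ-CD replicate 1, Il1rl1 from -1.74 to -0.29 without replicate 2, and Il1rn, Il1r1, Il18 and Il1rap stay between -0.29 and 0.55.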

How the data were processed

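For 6 arrays of an Agilent 8×60K mouse design, the authors deposited the scanner output of Feature Extraction 10.7.1.1, with a spot intensity that was background-corrected and detrended but not normalized between arrays. The log2 values of a further table deposited by the authors have the same distribution on every array and were read as quantile normalized, with the method not given in the sources used here. They served as an alternative. Probe positions are those of the file headers (mm9).

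Control spots and 790 outlier spots were left out, spots of a probe were averaged, and the 75th percentile of the gene probes was subtracted from the log2 intensity in R 4.3.3 (data.table, version 1.17.8). A probe counted as well above background where at least 0.5 of its spots were. Of 56605 gene probes, 58.3% were named through their accession. The groups were compared by limma 3.58.1 (lmFit, eBayes) over all 19090 genes and called at a Benjamini-Hochberg adjusted p below 0.05. The code of the fit was run on simulated data with independent noise for each gene. These data held no differences shared by whole arrays, and no result is drawn from them. A permutation test of 3 against 3 arrays cannot go below p = 0.10. Each array holds the RNA of 1 mouse. All arrays were on 1 slide in 1 scan; the slide's first row held the RG@M-γ-CD arrays and PBS replicate 1, and the second PBS replicates 2 and 3.

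The genes and lists were chosen with earlier results of these data known. Named are every gene of the family with every probe, in each pathway list the largest rise, the largest fall and any gene past the adjusted threshold, and the 3 genes most like each member with an SD of at least 0.5. Alternatives were other normalization, background correction, values, filters, probe choice, outliers, the replicate block, the slide row, the methods' t-test, the heat map's arrangement and each array left out.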

Additional observations from a re-analysis of the deposited data

How the results depend on the processing

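Under the normalization, background, value table, filter, probe, outlier, t-test, slide row and replicate block alternatives each of the 9 genes kept its direction, and no gene of the family or pathway passed the adjusted threshold. The replicate block gave 0 genes past it and a median of -0.64 over the family. Same-numbered arrays of the groups correlated at -0.25, -0.23 and 0.14 after the group means were removed, and unlike-numbered ones at -0.33 to 0.41. With 3 arrays per group these values cannot show whether the numbers pair the mice. The methods' t-test, with a fold of at least 2 and p of at most 0.05, called 12 genes higher and 33 lower over the array, none of them in the family, and 0 genes after Benjamini-Hochberg adjustment. With the slide row as a block the estimate comes from the first row alone, and the median of all genes was 0.10. It moved Il18 to 0.55, Il1rap to 0.44 and Il18bp to -1.08 (unadjusted p = 0.049).

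Leaving out 1 array at a time gave 0 to 1 genes of the family, 0 to 2 pathway genes and 0 to 202 genes in all past the adjusted threshold, each highest value without RG@M-γ-CD replicate 1, and a median over the family from -0.77 (PBS replicate 2 left out) to -0.072 (replicate 2 of RG@M-γ-CD left out). Directions turned for Il18 (range -0.12 to 0.25), Il1r1 (-0.23 to 0.083), Il1rap (-0.070 to 0.20) and Il1rl2 (-0.0053 to 0.68). Without replicate 1 of both groups Il18 was -0.047 and Il1rap -0.14.

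In the arrangement of the heat map 5 genes passed in all, none in the family, and the median of all genes was -0.12 and of the family -0.29. Directions turned for Il18 (-0.17), Il1rn (-0.067), Il18bp (0.19), Il1rap (-0.29), Irak3 (0.12) and Il6 (-0.72). The cause was not tested. Il36a gave no value when probes had to be above background on all arrays. Signal near background limits Il1a, Il36a and the second Il1r2 probe.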
